A study of Mus musculus with 23 samples.

Results

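Gene expression was measured by bulk RNA-seq in brain tissue of wild-type (WT) C57BL/6J mice that ate chow with PLX3397, at a dose of 290 mg/kg, or control chow without inhibitor. Both diets lasted 14 days. The comparison holds 7 libraries of 23 in the series, 4 with PLX3397 and 3 with control chow, chosen by genotype and diet as the labels state them. A further 8 libraries came from mice with an altered form of the colony-stimulating factor 1 receptor (CSF1R), Csf1R-G793A, named for its amino acid change. Of these, 4 ate PLX3397 chow at the same dose and 4 ate control chow, and they are used below to ask whether the effect of the inhibitor differed with the receptor. A last group of 4 WT libraries came from PLX5622 chow at 1200 mg/kg over the same 14 days. The labels give no brain region, sex, age or batch, and whether every library is from its own mouse is not stated. The p-values therefore refer to the spread of these libraries, which may be technical.

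The PLX3397 libraries held 33.0, 38.3, 36.2 and 36.1 M counts (M, mega), and the control libraries held 35.1, 33.8 and 39.5 M. Values per library are given as counts-per-million (CPM), and CPM is not divided by transcript length, so it serves to compare libraries and not genes. Transcripts of neurons, astrocytes and myelin were abundant in all 7 libraries, which matches the labelled tissue. The neuronal gene list summed to 12255 to 13764 CPM with PLX3397 and to 10860 to 13122 CPM with control chow. No replicate duplicated another. PLX3397 replicate 1 stood apart in immediate early genes, and PLX3397 replicate 4 had the lowest levels of most macrophage gene lists.

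PLX3397 is an orally taken inhibitor of the receptor kinase CSF1R that also acts on the related kinases KIT and FLT3. In the brain CSF1R is carried by microglia, the resident macrophages of the tissue, and by the border-associated macrophages of the meninges, perivascular spaces and choroid plexus. These cells depend on signals from the ligands CSF1 and IL-34 through CSF1R for their survival, and feeding CSF1R inhibitors is a common way to remove microglia. In bulk tissue, fewer cells of a type and less RNA per cell cannot be told apart.

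Of 16209 genes tested, 241 fell with PLX3397 (1.49% of those tested) and 6 rose (0.037%), at an adjusted p under 0.05 by edgeR's quasi-likelihood test. The PLX3397 libraries all lay below the control libraries for 992 genes (6.12%) and all above them for 800 genes (4.94%). Among the 247 genes called in either direction, the groups did not overlap for 246. The median log2 fold change over all genes tested was 0.0075. The genes that fell had a median level of 40.4% of control, a median log2 fold change of −1.31. Of these, 54 fell to less than 25% of control, 108 to between 25% and 50%, 65 to between 50% and 75%, and 14 to between 75% and 100%. Apart from 1 gene without a count in any PLX3397 library, their levels ran from 6.50% to 85.7% of control. That gene is Clec4n, a C-type lectin receptor of macrophages, which had 0 counts over the 4 PLX3397 libraries and 27 over the 3 control libraries and was named after its values were seen. Of the 241 genes, 31 were under 1 CPM on average in the control libraries. Beside this, a filter at a mean of 1 CPM or more over all 23 libraries kept 13955 genes, against the 16209 tested. Of the 241, 34 belong to the 3 lists of microglial, pan-myeloid and border-associated macrophage markers. These lists hold only 16, 16 and 12 tested genes, which bounds this count, and macrophage genes also stand outside them. None of the 47 gene lists used here holds 117 of the 241.

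**Figure D1:**
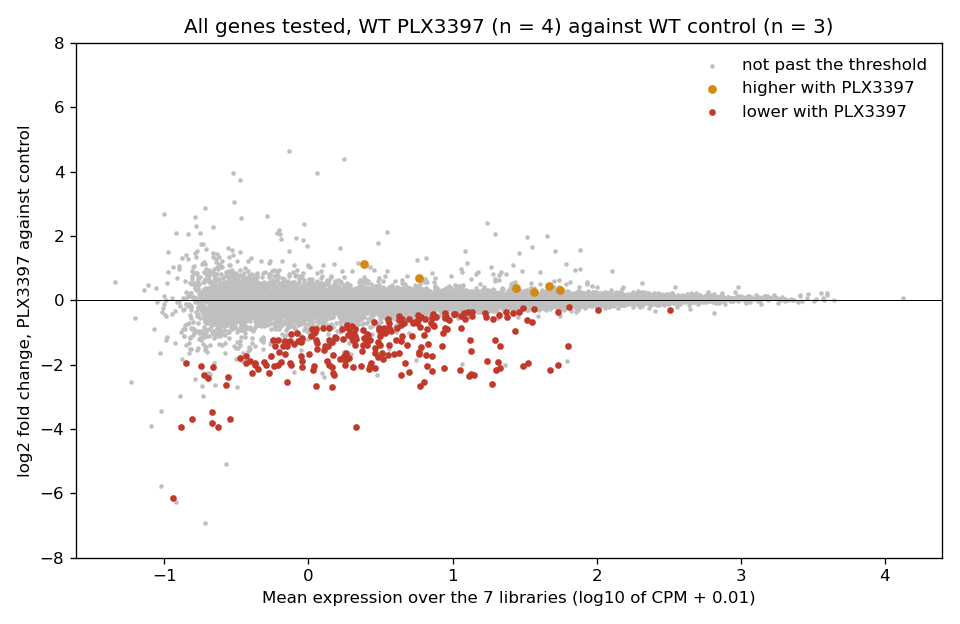
Log2 fold change of WT PLX3397 (n = 4) against WT control (n = 3) on the vertical axis and mean expression over the 7 libraries, as log10 of CPM plus 0.01, on the horizontal axis, with a point for each of the 16209 genes tested. The 241 genes that fell (red) spread over a wide range of fold changes, and the 6 that rose (orange) lie between 0.26 (Smyd3) and 1.12 (Spink8).

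Csf1r, the gene of the targeted receptor, fell in all 4 PLX3397 libraries. It had 25.5, 28.9, 21.6 and 17.0 CPM in the PLX3397 libraries, against 95.1, 93.4 and 92.8 CPM in the control libraries. Its PLX3397 levels lay far below the narrow control range, with replicate 4 lowest. The log2 fold change was −2.01 ± 0.20 (SE), a level of 24.8% of control (edgeR adjusted p = 2.24e-06). The ligand gene Csf1 had 19.8, 20.9, 24.9 and 22.6 CPM with PLX3397 and 20.8, 21.8 and 22.96 CPM with control chow, and the groups overlapped (log2 fold change 0.01 ± 0.07, adjusted p = 0.985). Il34, the ligand made mainly by neurons, likewise overlapped, at 49.2 to 54.0 CPM with PLX3397 and 43.5 to 55.3 CPM with control chow (0.02 ± 0.08, adjusted p = 0.973).

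The related receptor kinases had small differences that did not pass in edgeR. Kit, the receptor for stem cell factor, had 55.1, 60.04, 50.5 and 61.2 CPM with PLX3397 and 47.0, 50.1 and 43.6 CPM with control chow. Each PLX3397 library was above each control library, but the log2 fold change of 0.27 ± 0.11 had an adjusted p of 0.484. Flt3, a receptor of haematopoietic progenitors, had overlapping groups (0.14 ± 0.15, adjusted p = 0.873). Pdgfra, the receptor that marks oligodendrocyte precursors, had 56.8, 50.3, 56.6 and 52.6 CPM with PLX3397 and 63.6, 67.0 and 69.5 CPM with control chow. All PLX3397 libraries were lower, and the log2 fold change of −0.30 ± 0.08 had an adjusted p of 0.0716. Over the 13 tested genes for these receptors and their ligands, edgeR called 1, Csf1r, while DESeq2 called 2, Csf1r and Pdgfra, and limma-voom 1, and the median log2 fold change was −0.03.

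Most markers of the 3 macrophage lists fell. Of the homeostatic microglial markers 13 of 16 tested fell (median log2 fold change −2.02), of the pan-myeloid markers 11 of 16 (−1.73), and of the border-associated macrophage markers 10 of 12 (−2.06). P2ry12, the ADP receptor that directs microglial processes, had 6.63, 6.66, 5.89 and 4.78 CPM with PLX3397 and 35.7, 38.4 and 33.8 CPM with control chow (−2.59 ± 0.19, adjusted p = 2.42e-08). P2ry13, a second ADP receptor next to it in the genome, had 1.30 to 2.51 CPM with PLX3397 and 11.2 to 11.47 CPM with control chow (−2.66 ± 0.22, adjusted p = 7.84e-08). Both fell to about the same share of control, and neither had a PLX3397 library near the control range. Siglech, a surface lectin, fell to 17.2% of control, and Itgam, the complement receptor 3 subunit CD11b, to 19.4%. Selplg, the P-selectin ligand, fell to 19.8%, and Fcrls, an Fc receptor-like molecule, to 20.4%.

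The largest fall among genes at 1 CPM or more was in a marker of border-associated macrophages. Mrc1, the mannose receptor CD206, had 0.397, 0.429, 0.304 and 0.0566 CPM with PLX3397 and 4.68, 4.28 and 4.75 CPM with control chow. Its level was 6.56% of control, the log2 fold change being −3.93 ± 0.29 (adjusted p = 5.35e-09), and replicate 4 was lowest. F13a1, coagulation factor XIII subunit A, had 0.305, 0.644, 0.581 and 0.1697 CPM with PLX3397 and 2.88, 2.67 and 2.87 CPM with control chow (−2.70 ± 0.33, adjusted p = 6.55e-06). Stab1, a scavenger receptor, fell to 23.3% of control (−2.10 ± 0.12, adjusted p = 1.97e-10). At lower expression, Cd209f, a C-type lectin, and Pf4, platelet factor 4, which these macrophages also make, had at most 0.0566 CPM in any PLX3397 library and at least 0.366 CPM in each control library.

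**Figure D2:**
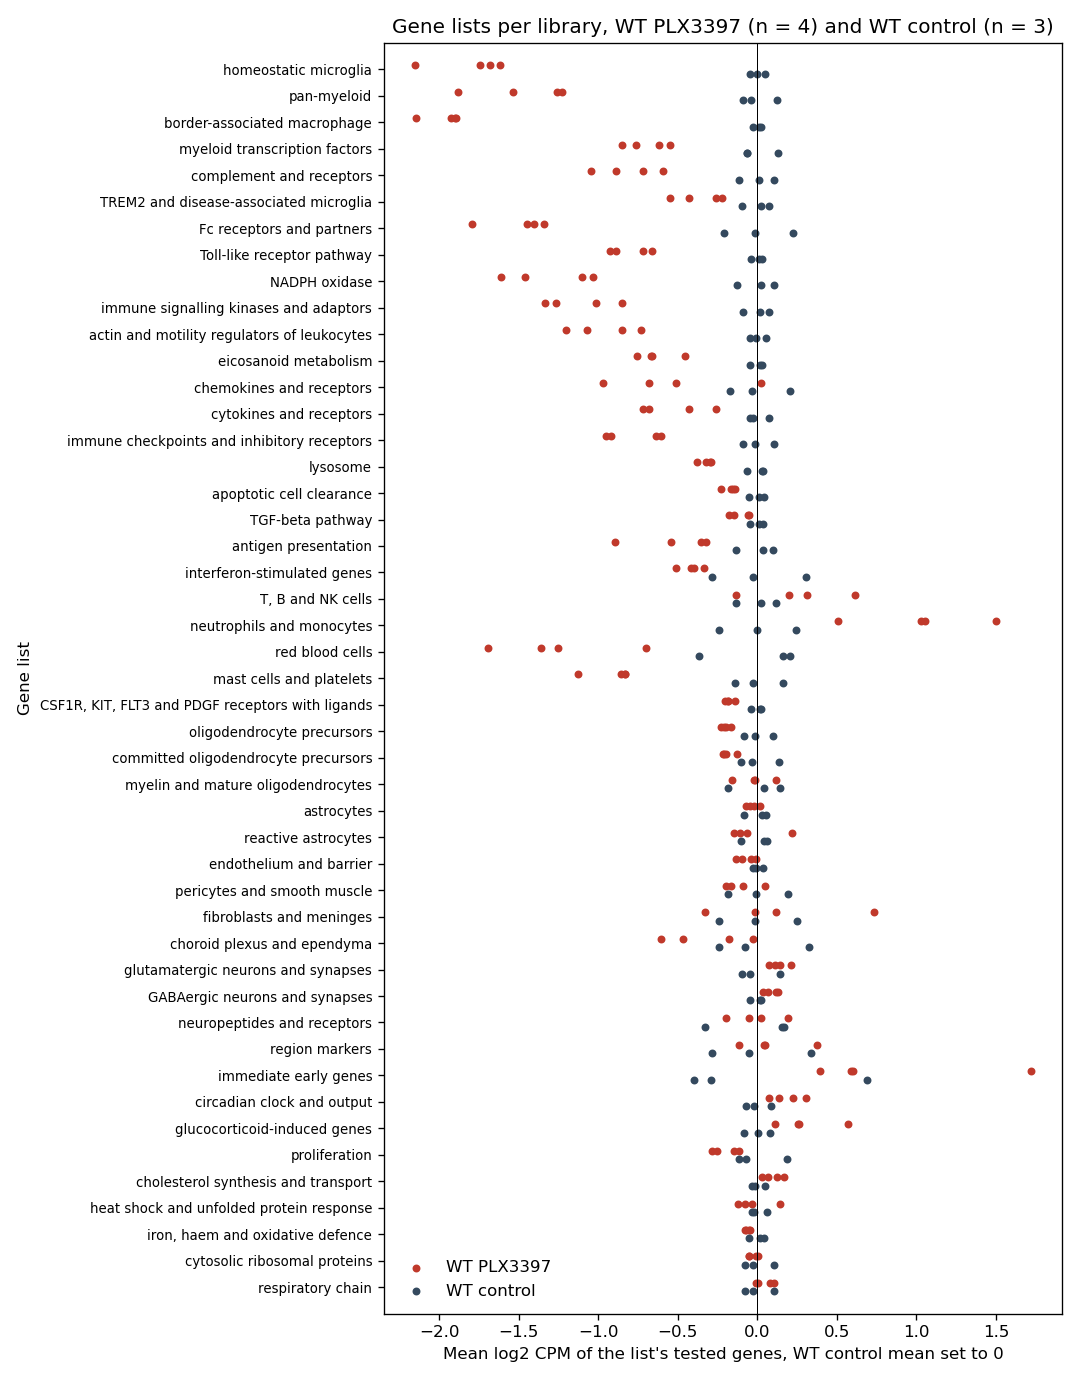
Mean log2 CPM of the tested genes of each of the 47 gene lists, with the WT control mean set to 0, per library for WT PLX3397 (red, n = 4) and WT control (dark blue, n = 3). The homeostatic microglial list lies between −2.15 and −1.62 in the PLX3397 libraries and between −0.04 and 0.05 in the control libraries, while the lists of myelin, astrocytes and respiratory chain overlap between the groups.

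Transcription factors of the myeloid lineage fell in part. Of the 14 tested, 6 fell, and the median log2 fold change over the list was −0.67. Spi1, which encodes PU.1, the ETS-family factor that sets the macrophage programme, had 0.764, 0.590, 0.525 and 0.368 CPM with PLX3397 and 3.24, 2.44 and 2.35 CPM with control chow. No PLX3397 library reached the control range, and the level was 21.0% of control (−2.25 ± 0.23, adjusted p = 9.7e-07). Lyl1, a basic helix-loop-helix factor of blood cells, fell to 26.8% of control, Irf5, an interferon regulatory factor downstream of Toll-like receptors, to 30.3%, and Ikzf1, the zinc-finger factor Ikaros, to 38.2%.

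Promoters of the genes that fell were searched for the 8-letter sequence GAGGAAGT, which PU.1 is known to bind, because Spi1 was among them. RefSeq windows on GRCm38.p6, from 250 bases before to 50 bases after each gene start, were available for 187 of the 241 genes that fell and for 12627 of the 16209 genes tested. The sequence, on either strand, occurred in 28 of 235 windows of genes that fell (11.9%) and in 428 of 15805 windows of the other tested genes (2.71%), and in 3.20% of all 32851 windows. The shorter ETS core GGAAGT, which GAGGAAGT contains, occurred in 41.3% of windows of genes that fell, 25.4% of windows of the other tested genes and 23.8% of all windows. The sequence CCGGAAGT, a form bound by other ETS factors that also contains this core, went the other way, at 2.13% of windows of genes that fell, 6.60% of windows of the other tested genes and 3.89% of all windows. For the interferon-response type of sequence, GAAA followed by NN and again GAAA, the shares were 6.38%, 3.03% and 3.44% in the same order of windows. These matches describe letters in a window and do not show that a factor was bound.
The 250 bases before the start of 5 genes with a match are shown, chosen after the search by p-value and not by function. They had the smallest p-values in the WT comparison among the genes considered for display, whose match lay before the start. Capitals mark GAGGAAGT, or ACTTCCTC where the match is on the other strand. Each run is given 5′ to 3′ on the strand of its gene.
Vav1, chr17:57278850-57279099, plus strand: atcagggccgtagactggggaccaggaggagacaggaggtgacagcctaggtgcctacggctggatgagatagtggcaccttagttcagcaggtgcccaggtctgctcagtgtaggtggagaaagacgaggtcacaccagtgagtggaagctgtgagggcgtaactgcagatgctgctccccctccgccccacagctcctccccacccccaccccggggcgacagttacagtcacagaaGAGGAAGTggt
Hpgds, chr6:65144731-65144980, minus strand: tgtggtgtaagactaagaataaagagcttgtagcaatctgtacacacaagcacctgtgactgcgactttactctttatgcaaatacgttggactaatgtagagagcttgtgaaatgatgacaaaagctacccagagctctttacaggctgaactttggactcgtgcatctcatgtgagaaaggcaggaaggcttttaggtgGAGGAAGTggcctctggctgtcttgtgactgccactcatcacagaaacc
Cd37, chr7:45238840-45239089, minus strand: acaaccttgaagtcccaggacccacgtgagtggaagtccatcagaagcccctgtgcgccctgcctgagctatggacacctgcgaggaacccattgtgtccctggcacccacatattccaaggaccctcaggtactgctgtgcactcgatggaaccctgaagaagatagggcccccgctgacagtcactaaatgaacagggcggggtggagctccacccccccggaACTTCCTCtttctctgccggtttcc
Inpp5d, chr1:87620062-87620311, plus strand: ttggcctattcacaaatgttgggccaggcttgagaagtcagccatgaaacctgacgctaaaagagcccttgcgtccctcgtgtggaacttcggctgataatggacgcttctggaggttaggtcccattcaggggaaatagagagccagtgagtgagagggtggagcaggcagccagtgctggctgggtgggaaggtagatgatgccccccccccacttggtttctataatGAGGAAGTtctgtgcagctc
C1qc, chr4:136892915-136893164, minus strand: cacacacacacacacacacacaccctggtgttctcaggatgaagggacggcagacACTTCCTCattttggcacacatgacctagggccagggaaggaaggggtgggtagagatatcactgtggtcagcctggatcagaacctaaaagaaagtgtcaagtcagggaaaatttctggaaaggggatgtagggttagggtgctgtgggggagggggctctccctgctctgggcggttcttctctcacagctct
The match ends 4 bases before the start in Vav1, 13 in Inpp5d, 18 in Cd37 and 42 in Hpgds, and lies farther out, 188 bases before the start, in C1qc. All 5 genes fell: Vav1, a guanine nucleotide exchange factor, by 2.07 on the log2 scale, Hpgds, haematopoietic prostaglandin D synthase, by 1.84, Cd37, a tetraspanin, by 1.85, Inpp5d, the phosphatase SHIP1, by 1.00, and C1qc by 1.88. Cd37 and Inpp5d were named here after their values were seen.

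Receptors that bind antibody, microbial products and complement fell unevenly. Of 8 tested genes for Fc receptors and their partners, 5 fell (median log2 fold change −1.80). Fcgr3, the low-affinity IgG receptor III, had 3.54, 3.54, 2.32 and 1.92 CPM with PLX3397 and 13.6, 10.9 and 10.8 CPM with control chow (−2.05 ± 0.20, adjusted p = 4.76e-07). Fcer1g, the shared signalling chain of Fc receptors, fell to 23.1% of control, and Fcgr1, the high-affinity IgG receptor, to 32.1%. In the Toll-like receptor pathway 4 of 18 tested genes fell by edgeR, beside 1.49% of all genes tested. DESeq2 and limma-voom called 6 each, and 11 had an unadjusted p under 0.05. All 18 had a negative log2 fold change, and the median was −0.65. The 4 were Tlr13, a sensor of bacterial ribosomal RNA (−2.09), Cd180, a Toll-like receptor homologue (−1.88), Unc93b1, which escorts endosomal Toll-like receptors (−1.37), and Tlr7, a sensor of single-stranded RNA (−1.06). Tlr13, Tlr7 and Unc93b1 work in the endosome.

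Complement genes split by role. The 3 genes for the subunits of C1q, which starts the classical pathway and which microglia supply in brain, fell together. C1qa had 9.96, 8.64, 7.82 and 5.71 CPM with PLX3397 and 40.3, 33.7 and 34.5 CPM with control chow (−2.17 ± 0.25, adjusted p = 1.2e-05). C1qb fell to 23.2% of control and C1qc to 27.3%, and in all 3 genes replicate 4 was lowest. Of the whole list of 14 tested complement genes and receptors, 5 fell, and the median log2 fold change was −0.62.

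Signalling proteins that pass on signals from leukocyte surface receptors fell in most of the genes tested. Of 20 tested genes on the list of immune signalling kinases and adaptors, 14 fell (median log2 fold change −1.18). A member of the 14, Tbxas1, is an enzyme that also stands on the eicosanoid list. Vav1 had 0.886, 1.15, 0.608 and 0.764 CPM with PLX3397 and 4.09, 3.98 and 2.72 CPM with control chow, so the groups stood well apart (adjusted p = 1.43e-06). Sash3, an adaptor of lymphocytes and macrophages, fell to 24.4% of control, and Pik3cg, the catalytic subunit of phosphoinositide 3-kinase gamma, fell by 1.74 on the log2 scale. Pik3cg varied widely among the PLX3397 libraries, at 1.47, 0.832, 0.221 and 0.990 CPM with PLX3397 and 2.77 to 3.19 CPM with control chow.

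Genes for movement and for the oxidative burst followed the same direction. Of 17 tested actin and motility regulators of leukocytes, 10 fell (median log2 fold change −1.20), beside 1.49% of all genes tested. All PLX3397 libraries were below all control libraries for 15 of the 17, beside 6.12% of all genes tested. Nckap1l, the haematopoietic subunit HEM1 of the WAVE complex, had 3.91, 4.11, 3.15 and 3.14 CPM with PLX3397 and 11.9, 12.1 and 11.6 CPM with control chow (−1.73 ± 0.16, adjusted p = 2.58e-07). Arhgap30, a GTPase-activating protein, and Dock2, an activator of Rac, fell to 29.1% and 31.9% of control. Of the 7 tested NADPH oxidase genes, 6 fell (median −1.41). Ncf4, Ncf1, Cybb and Rac2, which encode subunits or the GTPase of the enzyme that makes superoxide, fell by 2.27, 1.50, 1.43 and 1.41 on the log2 scale. Ncf1 had 2.69, 1.77, 1.19 and 0.849 CPM with PLX3397 and 4.26, 5.50 and 3.96 CPM with control chow, a wide spread among the PLX3397 libraries. With the compared groups fitted alone its adjusted p was 0.0647. Cybb did not pass without control replicate 2 (adjusted p = 0.0539).

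Enzymes that make lipid mediators from arachidonic acid fell in 5 of 13 tested genes (median −0.61). Hpgds had 1.77, 1.82, 1.44 and 1.22 CPM with PLX3397 and 5.64, 5.44 and 5.70 CPM with control chow (−1.84 ± 0.20, adjusted p = 1.87e-06). Tbxas1, thromboxane A synthase, fell to 42.1% of control, and Alox5ap, which presents arachidonic acid to 5-lipoxygenase, to 44.3%. Pla2g4a, the phospholipase that releases arachidonic acid, was at 65.6% (−0.61 ± 0.15, adjusted p = 0.0386), a call that was lost when any of 5 libraries was left out (adjusted p = 0.485 without control replicate 3). Outside this list, Hpgd, which degrades prostaglandins, also fell, to 38.1% of control (−1.39 ± 0.18, adjusted p = 1.45e-05).

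Cytokine and chemokine genes were mixed. Of 22 tested cytokines and receptors, 12 fell (median −0.44), and of 22 tested chemokines and receptors, 4 fell (median −0.19). Cx3cr1, the receptor for the neuronal chemokine fractalkine, had 15.9, 14.98, 12.7 and 9.36 CPM with PLX3397 and 55.9, 53.0 and 54.2 CPM with control chow (−2.04 ± 0.20, adjusted p = 1.78e-06). Others that fell included Ccl9, a CC chemokine of mice (−2.16), and Ccr1, a chemokine receptor, at 0.0553 to 0.107 CPM with PLX3397 and 0.226 to 0.356 CPM with control chow. The Ccr1 call was lost when any of the 7 libraries was left out (adjusted p = 0.176 without control replicate 3). Among cytokine receptors, Il21r fell to 34.8% and Csf2rb, the shared beta chain for GM-CSF, IL-3 and IL-5, to 44.0% of control. The Csf2rb call was lost without control replicate 3 (adjusted p = 0.201), PLX3397 replicate 3 or PLX3397 replicate 4.

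In the TGF-beta pathway, which maintains the microglial state, 3 of 14 tested genes fell and the list median was 0.02. Tgfb1, the ligand, had 2.23, 2.33, 1.99 and 1.84 CPM with PLX3397 and 4.62, 4.43 and 4.48 CPM with control chow (−1.10 ± 0.15, adjusted p = 2.71e-05). Tgfbr1, the type I receptor, fell to 51.4% of control (−0.96 ± 0.12, adjusted p = 1.03e-05) and Tgfbr2, the type II receptor, to 73.6% (−0.44 ± 0.08, adjusted p = 0.000888). The groups did not overlap for any of these 3 genes.

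Inhibitory receptors and immune checkpoints fell in 9 of 17 tested genes (median −0.94). Havcr2, which encodes TIM-3, had 1.10, 1.21, 0.359 and 0.453 CPM with PLX3397 and 2.99, 2.82 and 2.53 CPM with control chow (−1.83 ± 0.28, adjusted p = 0.000201). Replicates 3 and 4 of PLX3397 were well below replicates 1 and 2. Cd33, a sialic acid-binding lectin, fell to 32.3% of control (−1.63 ± 0.18, adjusted p = 1.87e-06).

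Genes of antigen presentation fell less evenly, and their control libraries varied. Of 15 tested, 4 fell, all from the MHC class II pathway (list median −0.35). H2-Aa, the class II alpha chain, had 1.34, 0.912, 1.16 and 0.198 CPM with PLX3397 and 2.62, 2.05 and 4.36 CPM with control chow (−1.74 ± 0.38, adjusted p = 0.0137). H2-Ab1, the class II beta chain, was at 40.6%, Cd74, the invariant chain, at 46.4%, and H2-DMb1, a peptide-loading subunit, at 51.0% of control. Control replicate 3 was the highest control for H2-Aa, H2-Ab1 and Cd74, and without it none of these 3 passed (adjusted p = 0.176 for H2-Aa, 0.163 for H2-Ab1 and 0.246 for Cd74). H2-DMb1 passed without it but not when any of 5 other libraries was left out (adjusted p = 0.245 without control replicate 2). MHC genes have close relatives, so counts may be shared between copies.

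Of 20 tested interferon-stimulated genes, 0 passed in edgeR, 12 had an unadjusted p under 0.05 and DESeq2 called 1, Bst2. Of the 20, 19 had a negative log2 fold change and the median was −0.49. All PLX3397 libraries were below all control libraries for 9 of the 20, beside 6.12% of all genes tested. Bst2, the antiviral protein tetherin, had 2.75, 2.04, 2.71 and 1.87 CPM with PLX3397 and 4.88, 2.94 and 3.86 CPM with control chow (−0.74 ± 0.21, adjusted p = 0.0958). Ifitm3, an inhibitor of viral entry, differed by −0.41 ± 0.12 (adjusted p = 0.139). The list score ran from −0.51 to −0.33 with PLX3397 and from −0.28 to 0.31 with control chow, so the control libraries varied more than the PLX3397 libraries.

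Lysosomal genes included some of the clearest and some of the smallest falls. Of 28 tested, 9 fell, and the list median was −0.13. Pld4, an exonuclease of endolysosomes, had 1.62, 1.69, 1.82 and 1.24 CPM with PLX3397 and 8.65, 7.72 and 7.75 CPM with control chow (−2.33 ± 0.17, adjusted p = 4.05e-09). Ctss, cathepsin S, fell to 25.6% of control. At the other end, Ctsd, cathepsin D, which many brain cell types make, had 288, 291, 303 and 291 CPM with PLX3397 and 372, 354 and 366 CPM with control chow. That is 80.6% of control, with the groups well separated (−0.31 ± 0.06, adjusted p = 0.0012). Man2b1, a lysosomal mannosidase, was at 82.5% (−0.28 ± 0.07, adjusted p = 0.0344), among the 3 smallest falls that passed. The others were Septin2, a cytoskeletal GTPase, at 85.7%, and Lims1, a focal adhesion adaptor, at 84.3%. The calls of Man2b1 and Septin2 were each lost when any of 6 libraries was left out (adjusted p = 0.167 without control replicate 2 and 0.220 without control replicate 3), and that of Lims1 when any of 4 was (0.137 without control replicate 3).

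Genes of apoptotic cell clearance and of the TREM2 programme mostly did not pass. Of 16 tested clearance genes, Stab1 and Itgb5, an integrin subunit, fell, with a list median of −0.03. Itgb5 had 30.7, 28.3, 28.4 and 26.9 CPM with PLX3397 and 46.3, 43.6 and 45.7 CPM with control chow (−0.66 ± 0.09, adjusted p = 5.54e-05). Of 15 tested genes on the list of TREM2 and disease-associated microglia, 3 fell (list median −0.12): Trem2, a lipid receptor of microglia, to 32.8% of control, its adaptor Tyrobp to 30.5%, and Ctsd.

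Genes on none of the lists included several with small p-values and steady values. Slco2b1, an organic anion transporter, had 8.43, 8.78, 8.18 and 7.67 CPM with PLX3397 and 18.7, 19.9 and 20.1 CPM with control chow. Its groups were both tight, and the level was 42.2% of control (−1.24 ± 0.10, adjusted p = 1.8e-08). Rnase4, a secreted ribonuclease, fell to 37.2% of control (−1.43 ± 0.13, adjusted p = 2.23e-07). Ang, angiogenin, which shares a locus with Rnase4 so that counts between the pair are uncertain, fell to 38.8%. Ang was named after its values were seen, and did not pass without control replicate 1 (adjusted p = 0.0535). Entpd1, the ectonucleotidase CD39 that degrades ATP and ADP, fell to 55.5% of control (−0.85 ± 0.09, adjusted p = 1.75e-06). It acts on the ligands of the P2Y receptors above.

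Others from this set encode signalling or host-defence proteins. Sting1, the adaptor of cytosolic DNA sensing, had 0.825, 0.993, 1.08 and 0.622 CPM with PLX3397 and 3.24, 3.62 and 2.50 CPM with control chow (−1.82 ± 0.21, adjusted p = 4.23e-06). Tifab, an inhibitor of TRAF signalling, Bin2, a membrane-curving protein of leukocytes, and Hcls1, a cortactin relative, fell to 24.9%, 24.5% and 24.1% of control. Mpeg1, the pore-forming protein perforin-2, had 8.63 to 15.3 CPM with PLX3397 and 31.4 to 35.0 CPM with control chow. Adgre1, the F4/80 antigen, fell to 30.7%, Cd86, a co-stimulatory ligand, to 25.03%, Abi3, an actin regulator, to 31.5% and Anxa3, an annexin, to 54.1% of control. Clec5a, an activating lectin receptor, fell to 15.9% and Tnfaip8l2, a negative regulator of immune signalling, to 24.97% of control.

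A few genes were added after their values were seen, because of their function. Nlrp3, an inflammasome sensor, had 0.642, 0.268, 0.359 and 0.255 CPM with PLX3397 and 0.987, 0.802 and 1.263 CPM with control chow (−1.43 ± 0.33, adjusted p = 0.0207). Its adaptor Pycard fell to 55.2% of control (−0.86 ± 0.19, adjusted p = 0.0169). The Nlrp3 call was lost when any of 5 libraries was left out and the Pycard call when any of 4 was (adjusted p = 0.178 and 0.116 without control replicate 3). Crybb1 and Cryba4, lens crystallin genes that neighbour each other, fell to 19.98% and 23.5% of control, and Cryba4, at 0.0553 to 0.113 CPM with PLX3397 and 0.282 to 0.470 CPM with control chow, lost its call when any of the 7 libraries was left out (adjusted p = 0.259 without control replicate 3).

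**Figure D3:**
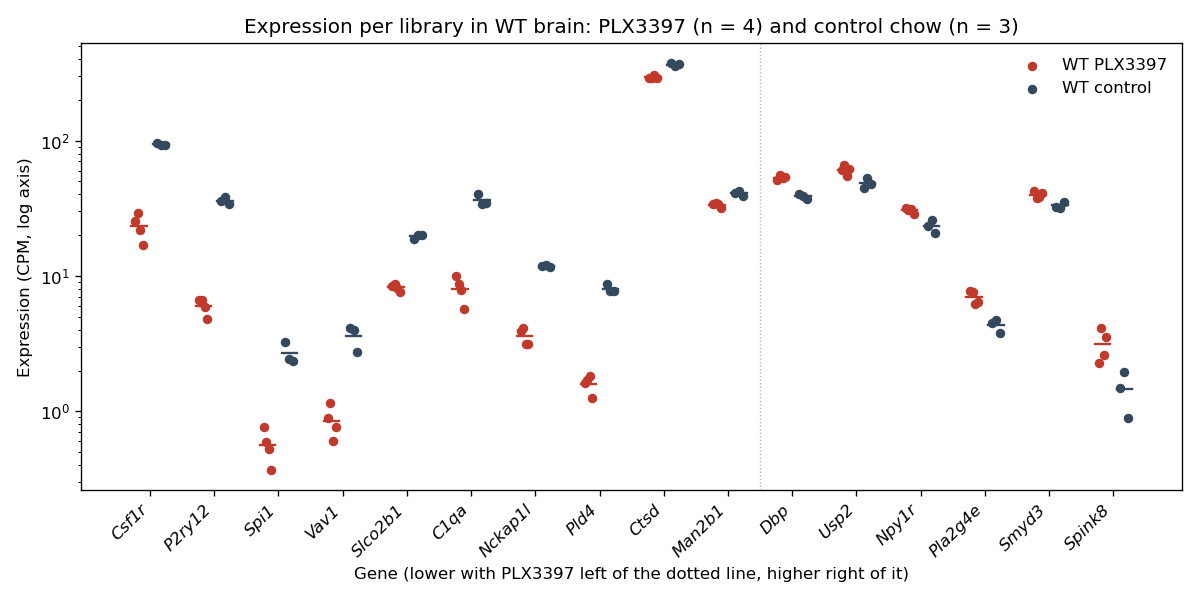
Expression in CPM (log axis) of 16 genes per library in WT brain with PLX3397 (red, n = 4) and control chow (dark blue, n = 3); horizontal bars are means. The 10 genes left of the dotted line have every PLX3397 library below every control library, and the 6 genes right of it the opposite.

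Few markers of the other cell types passed the test. In 22 of the 47 lists 0 genes passed by edgeR. These hold 349 tested genes, of which 59 had an unadjusted p under 0.05, DESeq2 called 8 and limma-voom 0. Over all genes tested, 1331 had an unadjusted p under 0.05 and the tools called 247 (edgeR), 310 (DESeq2) and 254 (limma-voom). Of 14 tested genes on the oligodendrocyte precursor list, 1 fell by edgeR, Matn4, while DESeq2 called 2 and limma-voom 1. Of the 14, 7 had an unadjusted p under 0.05. All PLX3397 libraries were lower for 5 of the 14, beside 6.12% of all genes tested. Matn4, an extracellular matrix protein, had 5.87, 5.21, 4.92 and 4.27 CPM with PLX3397 and 7.70, 6.74 and 7.23 CPM with control chow (−0.51 ± 0.13, adjusted p = 0.034). The median of this list was −0.20, and the score ran from −0.23 to −0.17 with PLX3397 and from −0.08 to 0.10 with control chow, without overlap. The Matn4 call was lost when any of 6 libraries was left out (adjusted p = 0.196 without control replicate 1). Gpr17, a receptor of committed precursors, was lower in each PLX3397 library, at 44.3 to 52.5 CPM against 64.6 to 69.3 CPM with control chow, but did not pass (−0.48 ± 0.15, adjusted p = 0.219). Bmp4 was at 67.6% of control (adjusted p = 0.224). None of 17 tested myelin genes passed, and Opalin differed by 0.23 ± 0.09 (adjusted p = 0.441).

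For astrocytes, reactive astrocytes, endothelium, pericytes and fibroblasts, 0 genes of 15, 20, 18, 12 and 13 tested passed by edgeR, and the list medians were −0.02, −0.03, −0.09, −0.10 and 0.03. S100b, a calcium-binding protein of astrocytes, differed by −0.23 ± 0.13 (adjusted p = 0.704), and Kdr, a VEGF receptor of endothelium, by −0.34 ± 0.13 (adjusted p = 0.403). Col1a1, a collagen of fibroblasts, stood at 96.1, 16.0, 35.7 and 11.99 CPM with PLX3397 and 12.9, 12.4 and 17.5 CPM with control chow, so the high values were in PLX3397 replicates 1 and 3. On the choroid plexus and ependyma list 0 of 13 genes passed by edgeR or DESeq2, with 3 at an unadjusted p under 0.05 (median −0.28).

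Neuronal genes had mostly small positive fold changes and did not pass the test. Of 16 tested glutamatergic genes and 16 tested GABAergic genes, 15 each were positive and 0 passed by edgeR or DESeq2, with 2 and 0 at an unadjusted p under 0.05; the medians were 0.13 and 0.07, beside 0.0075 over all genes tested. Cholesterol synthesis genes were also mostly positive, 20 of 23 with a median of 0.11. In edgeR 0 of the 23 passed and 8 had an unadjusted p under 0.05, while DESeq2 called 3 and limma-voom 0. In this list Fdft1, squalene synthase, had 91.4 to 103 CPM with PLX3397 and 82.3 to 89.9 CPM with control chow (0.17 ± 0.05, adjusted p = 0.0762).

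Over the lists of red blood cells, of neutrophils and monocytes and of T, B and NK cells, edgeR called 1 gene, for haemoglobin. Neutrophil and monocyte genes had a median log2 fold change of 0.73, 10 of 11 tested were positive and 0 passed by edgeR, with 5 at an unadjusted p under 0.05, while DESeq2 called 2, S100a8 and S100a9. S100a9, a calcium-binding alarmin of neutrophils, had 5.80, 3.62, 1.33 and 1.13 CPM with PLX3397 and 0.310, 0.0891 and 0.0248 CPM with control chow (4.39 ± 1.19, adjusted p = 0.0916). Its partner S100a8 had 3.67, 2.12, 1.05 and 0.792 CPM with PLX3397 and 0.113, 0.0891 and 0.149 CPM with control chow (3.96 ± 1.25, adjusted p = 0.209). For both genes each PLX3397 library lay above each control library, and replicates 1 and 2 were highest. Haemoglobin went the other way: Hba-a2 had 17.9, 16.8, 29.9 and 11.46 CPM with PLX3397 and 99.6, 101 and 58.2 CPM with control chow (−2.18 ± 0.53, adjusted p = 0.0464), a call lost when any of 6 libraries was left out (adjusted p = 0.171 without PLX3397 replicate 4). Hba-a1, a near-identical copy with which its counts may be shared and which was named for that reason, was at −2.01 ± 0.54 (adjusted p = 0.0925). The red blood cell list summed to 323 to 377 CPM with PLX3397 and 414 to 604 CPM with control chow. Of its 8 tested genes, edgeR called 1, DESeq2 5 and limma-voom 0. Of 8 tested genes of T, B and NK cells, 0 passed in edgeR, DESeq2 or limma-voom and 0 had an unadjusted p under 0.05, and the list score overlapped, at −0.13 to 0.62 with PLX3397 and −0.14 to 0.11 with control chow. The part of blood left in the tissue in the other results was not tested.

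Immediate early genes, which neuronal activity induces, were positive for all 16 tested and passed for 0 by edgeR or DESeq2, with 3 at an unadjusted p under 0.05 (median 0.75). Btg2, an antiproliferative early gene, had 134, 52.3, 43.6 and 55.4 CPM with PLX3397 and 11.2, 38.5 and 23.7 CPM with control chow (1.54 ± 0.70, adjusted p = 0.567). Dusp1, a phosphatase of MAP kinases, was also highest in PLX3397 replicate 1, at 135 CPM. Control replicate 2 had the highest score of the control libraries, 0.69, inside the PLX3397 range of 0.39 to 1.72. Without PLX3397 replicate 1, 211 genes fell and 3 rose. Glucocorticoid-induced genes had a median of 0.27, and of 16 tested 0 passed in edgeR, 5 had an unadjusted p under 0.05 and DESeq2 called 1. Their score did not overlap between the groups, at 0.11 to 0.57 with PLX3397 and −0.08 to 0.08 with control chow. Nfkbia, an inhibitor of NF-kappaB, and Ddit4, a stress-induced inhibitor of mTOR, differed by 0.67 ± 0.21 (adjusted p = 0.179) and 0.59 ± 0.20 (adjusted p = 0.296). Proliferation genes (0 of 17), ribosomal protein genes (0 of 20) and respiratory chain genes (0 of 21) had medians of −0.07, −0.03 and 0.0027; in these lists 3, 0 and 0 genes had an unadjusted p under 0.05, and DESeq2 called 0.

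The 6 genes that rose were not macrophage genes by any of the lists. Dbp, an output factor of the circadian clock, had 50.7, 55.5, 53.2 and 53.8 CPM with PLX3397 and 40.1, 39.1 and 37.0 CPM with control chow (0.46 ± 0.10, adjusted p = 0.0139). Usp2, a deubiquitinase that cycles with the clock, had 60.5, 65.8, 54.5 and 61.9 CPM with PLX3397 and 44.9, 52.4 and 47.6 CPM with control chow (0.33 ± 0.08, adjusted p = 0.0344). These were the 2 genes that rose of 19 tested clock genes, whose list median was 0.13; the time of day of sampling is not in the labels.

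Npy1r, a receptor of neuropeptide Y, had 31.9, 30.4, 31.2 and 28.6 CPM with PLX3397 and 23.2, 25.97 and 20.9 CPM with control chow (0.39 ± 0.09, adjusted p = 0.0132). Pla2g4e, a phospholipase and N-acyltransferase, rose to 162% of control (0.70 ± 0.17, adjusted p = 0.0269), and Smyd3, a lysine methyltransferase, to 120% (0.26 ± 0.06, adjusted p = 0.0335). Spink8, a Kazal-type protease inhibitor, had 2.26, 4.13, 2.60 and 3.54 CPM with PLX3397 and 1.49, 1.96 and 0.891 CPM with control chow (1.12 ± 0.28, adjusted p = 0.0428). All 6 had every PLX3397 library above every control library, and none passed in each of the alternatives tried. Without 1 library the adjusted p reached 0.109 for Dbp, 0.163 for Npy1r, 0.209 for Pla2g4e and 0.345 for Spink8, each without control replicate 3, and 0.172 for Smyd3 and 0.268 for Usp2 without control replicate 1. The score of brain region markers ran from −0.11 to 0.38 with PLX3397 and from −0.28 to 0.34 with control chow, and its part in these results was not tested. The count of 6 was 2 without control replicate 3, 13 without control replicate 2, 3 without PLX3397 replicate 1 and 11 without PLX3397 replicate 3.

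The 4 PLX3397 libraries differed among themselves in how far macrophage genes fell. The homeostatic microglial score was −1.62, −1.68, −1.74 and −2.15 in replicates 1 to 4, against −0.04 to 0.05 with control chow. The pan-myeloid score was −1.22, −1.262, −1.53 and −1.88 in the same libraries. Replicate 4 was lowest for both, and its values for Csf1r, Mrc1, Cx3cr1 and H2-Aa were the lowest as well. Without replicate 4, 183 genes fell.

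Mice with the G793A receptor on the same chow gave a direct test of whether the effect differed with genotype. Between G793A PLX3397 and G793A control libraries, 1 gene fell of 16209 tested (0.00617%), Pdgfra, and 0 rose by edgeR. At an unadjusted p under 0.05 there were 924 lower and 975 higher genes, DESeq2 called 18 lower and 10 higher, and limma-voom 1 and 0. Csf1r averaged 74.4 ± 4.24 CPM in G793A PLX3397 and 81.4 ± 4.69 CPM in G793A control libraries (SD, n = 4 each), a log2 fold change of −0.13 (adjusted p = 0.814). The difference between the effects, WT minus G793A, passed for 89 genes with a larger fall or smaller rise in WT (0.549%) and for 1 gene the other way (0.00617%). For Csf1r this difference was −1.88 ± 0.27 (adjusted p = 0.000803) and for P2ry12 it was −2.26 ± 0.25 (adjusted p = 3.44e-05). Mrc1 differed by −3.39, P2ry13 by −2.30, Clec5a by −2.28, Selplg by −2.24, Siglech by −2.14 and Pld4 by −2.13. Among genes outside the marker lists, Slco2b1 differed by −1.15 ± 0.13 (adjusted p = 3.03e-05), and Vav1 of the signalling list by −1.84 ± 0.29 (adjusted p = 0.00112).

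The 241 genes that fell in WT had a median log2 fold change of −0.21 in G793A mice, where 218 of them were negative and 0 passed by edgeR. Of the 241, 48 had an unadjusted p under 0.05 in G793A mice, DESeq2 called 4 and limma-voom 0. Over all genes tested the G793A median was 0.0030 and 49.0% were negative. Some lists with positive medians in WT had similar or larger medians in G793A mice. These were neutrophils and monocytes (0.62, 0.73 in WT), immediate early genes (0.78, 0.75 in WT) and glucocorticoid-induced genes (0.41, 0.27 in WT). Medians nearer to zero in G793A mice were those of T, B and NK cells (0.04, 0.34 in WT) and cholesterol genes (0.03, 0.11 in WT). Differences of list medians between genotypes were not tested. Mrc1 was at −0.54 in G793A mice, F13a1 at −0.75, H2-Aa at −0.83 and Cd74 at −0.66; none of these passed. Matn4 and Pdgfra were lower in G793A mice by about as much as in WT or more, at −0.62 (adjusted p = 0.169) and −0.54 (adjusted p = 0.00678), and their differences between genotypes did not pass (0.11 and 0.23, adjusted p = 1.00 each). For the 6 genes that rose in WT the difference between genotypes did not pass, the smallest adjusted p being 0.227 for Spink8. All 6 differences were positive, from 0.06 for Smyd3 to 1.32 ± 0.38 for Spink8. These genes were chosen for their rise in WT, which favours this sign. Spink8 was at −0.20 in G793A mice, and averaged 2.72 CPM in G793A control against 1.45 CPM in WT control libraries. A single gene passed with a higher effect in WT, Npbwr1, a receptor for neuropeptides B and W. Npbwr1 was named after its values were seen and differed by 0.94 ± 0.21 (adjusted p = 0.0387). Its log2 fold change was 0.41 in WT and −0.53 in G793A mice, neither of which passed.

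**Figure D4:**
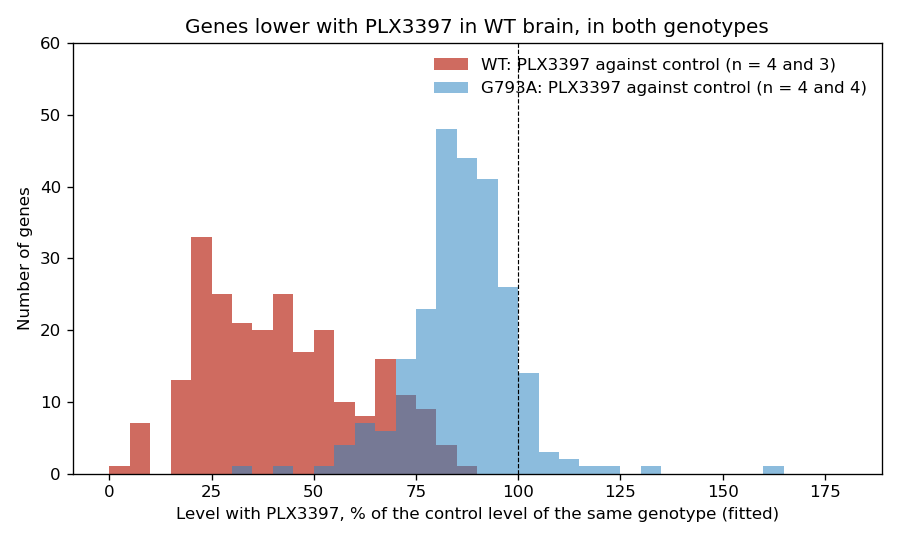
Number of genes (vertical axis) by level with PLX3397 as a percent of the control level of the same genotype (horizontal axis) for the 241 genes that fell in WT, in WT (red, n = 4 and 3 libraries) and in G793A mice (blue, n = 4 and 4). The WT values were used to choose the genes and have a median of 40.4%, while 218 of the 241 genes lie below 100% in G793A mice.

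PLX5622, the other inhibitor, was given at a higher chow dose, 1200 mg/kg against 290 mg/kg for PLX3397, so levels are set side by side and the doses differ. Csf1r averaged 23.3 ± 5.12 CPM with PLX3397 and 12.2 ± 4.56 CPM with PLX5622 (SD, n = 4 each). P2ry12 averaged 5.99 ± 0.880 CPM with PLX3397 and 3.22 ± 1.32 CPM with PLX5622, and Mrc1 0.297 ± 0.169 and 0.216 ± 0.0789 CPM in the same order. Pdgfra averaged 54.1 ± 3.18 CPM with PLX3397 and 67.7 ± 0.824 CPM with PLX5622, a log2 difference of −0.32 ± 0.08 (adjusted p = 0.491). By edgeR 0 genes differed between these groups (0%), with 664 at an unadjusted p under 0.05 and a smallest adjusted p of 0.0627; limma-voom called 0 and DESeq2 called 14. A difference in Csf1r of 0.92 ± 0.20 on the log2 scale thus did not pass after adjustment (adjusted p = 0.427).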

How the data were processed

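Expected counts per gene symbol are what the deposited count table holds, with 45.3% of values not whole. The authors also deposited a log2-scale table of variance-stabilised values for the same libraries. Per the submitters' processing notes, the tools were kallisto 0.46.1, FastQC 0.11.9 and DESeq2 1.26.0, and the build was GRCm39. How transcript values became gene values is not given in the sources. The entry with a blank gene name held 0.00828% to 0.0151% of the counts and was left out.

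After rounding to whole numbers, counts entered edgeR 4.0.16 in R 4.3.3, using TMM scaling and filterByExpr (minimum count 10, minimum total 15), which left 16209 of 22310 named genes. All 23 libraries of 6 groups entered 1 robust quasi-likelihood model with 1 coefficient for each group. Two-sided tests were used, with Benjamini-Hochberg adjustment over all genes tested and a threshold of 0.05. Where no tool is named, an adjusted p is edgeR's. The standard error is the log2 fold change over the square root of F, and the common biological coefficient of variation was 0.0998. List scores are means of log2 CPM with a prior count of 2.

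The libraries compared and the 47 gene lists were chosen with earlier results of these data known, and lists are described by counts and medians only. Genes named are the kinase receptors and CSF1R ligands, each gene that rose, the 12 largest non-overlapping falls at 1 CPM or more, up to 4 members per list (those past the threshold with the largest change, otherwise the 2 with the smallest p), the 15 smallest p-values on no list and the 3 smallest falls. Some genes that meet these criteria are not reported here. Other genes are said to have been named after their values were seen.

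Alternatives were RLE scaling, no filter, a mean of 1 CPM or more, a fit that was not robust, a replicate block, the compared groups alone, DESeq2 1.42.0, limma-voom and limma 3.58.1 on the deposited log2 values, removal of a length and GC trend, and each library left out in turn. No WT PLX3397 or WT control library duplicated another of its group, as their chi-square over degrees of freedom was 6.07 to 18.0. RefSeq promoter windows of GRCm38.p6 served only for sequence, as the coordinates of the files' own build were not used here.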

Additional observations from a re-analysis of the deposited data

Results flagged for a closer look

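In 7 of 167 values examined over the 4 WT PLX3397 libraries, 1 library lay far from the other 3, and chance alone gives about 1 in 20 such cases. Cybb was high in replicate 1, at 0.642 CPM, and Ccr1 in replicate 2, at 0.107 CPM. Clec5a was low in replicate 4, at 0.17 CPM. Btg2 stood at 134 CPM in replicate 1. The border-associated macrophage score was lowest in replicate 4, at −2.14, and the score of mast cells and platelets in replicate 3, at −1.13. The immediate early gene score was highest in replicate 1, at 1.72.

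The effect of PLX3397 differed between WT and G793A mice, by the interaction test in edgeR, for each of the following genes, given as the log2 fold change in WT minus that in G793A mice. Mrc1 had −3.39, P2ry13 −2.30, Clec5a −2.28, P2ry12 −2.26 and Selplg −2.24. Siglech and Pld4 had −2.14 and −2.13, and Itgam −2.05. Fcrls, F13a1 and Crybb1 had −1.97, −1.95 and −1.92. C1qa had −1.93, Csf1r −1.88, Spi1 and Vav1 −1.84 each, Stab1 −1.80 and Slco2b1 −1.15. Npbwr1 had the opposite sign, at 0.94.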

How the results depend on the processing

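The count of 241 genes that fell was 172 to 282 over the alternatives and 179 to 211 when single libraries were left out. DESeq2 shared 239 of the 241. The count of 6 that rose was 13 with the compared groups alone, 28 with DESeq2 and 2 to 13 without single libraries; the causes were not tested. The 90 genes whose effect differed between WT and G793A mice became 58 with limma on the authors' variance-stabilised values, 107 with limma-voom, 120 with DESeq2 and 68 to 93 without single libraries. Between PLX3397 and PLX5622, 0 genes became 1 without a filter, 1 with the length and GC trend removed, 14 with DESeq2 and 0 to 7 without single libraries (7 without PLX5622 replicate 1, 2 without PLX5622 replicate 3).

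With replicate number as a block, 210 genes fell, 4 rose, 76 differed between genotypes and 0 between inhibitors. The correlations of deviations between same-numbered WT libraries were −0.021, 0.234 and 0.182. Those between WT libraries of different numbers ran from −0.215 to 0.0786. The labels state no pairing, and whether the numbers pair the libraries was not tested. Of 95 named genes past the threshold, 63 passed in every alternative, and 71 whichever library was left out. Of 25 that did not pass, 8 passed in some alternative. The overlapping ligands changed sign. Csf1 was at −0.0087 with the replicate block, −0.0014 on the authors' log2 values and −0.0513 to 0.0533 without single libraries. Il34 was at −0.0181 on the authors' values and −0.0715 to 0.0983 without single libraries. Of the 241 genes, 31 averaged under 1 CPM in controls, where counting error limits the fold change.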

Other observations

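Genes that fell with PLX3397 were in places next to each other in the genome. Taking the genes tested in the order of their starts on GRCm38.p6, 33 of the 241 genes (13.7%) stood next to another gene that fell, in 16 runs. The run of 3 on chromosome 4 holds the C1q genes C1qb, C1qc and C1qa. Pairs with related products were P2ry13 and P2ry12 on chromosome 3, Cryba4 and Crybb1 on chromosome 5, H2-Ab1 and H2-Aa on chromosome 17, Ang and Rnase4 on chromosome 14, and the C-type lectins Clec4a2 and Clec4n on chromosome 6. Other pairs joined genes of different families, such as F13a1 and Ly86 on chromosome 13, Lcp2 and Dock2 on chromosome 11, Rac2 and Cyth4 on chromosome 15, and Tmem119 and Selplg on chromosome 5. Counts of overlapping or closely related neighbours may be shared, and the share expected for genes placed at random was not computed.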
